A study of Mus musculus with 24 samples.

Results

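10 genes of the receptors and signalling paths that GM-CSF, M-CSF and TGF-β act on were followed through bone marrow-derived macrophages (BMDMs) from wildtype (WT) and AhR-deficient mice. They were chosen by name, as receptors and targets of the culture's growth factors, by no rule on their values but with earlier results known. They are 10 of the 55421 genes counted. They comprise the GM-CSF receptor chains Csf2ra and Csf2rb, the related β chain Csf2rb2, and the M-CSF receptor Csf1r with its ligand Csf1. The others are the TGF-β receptors Tgfbr1 and Tgfbr2, the signal transducer Smad3, the inhibitory Smad7 and the SMAD corepressor Skil. All 10 passed the filter on low counts, Smad3 only through its counts after LPS. RNA of 24 cultures was sequenced in 4 groups of 6: WT unstimulated, AhR KO unstimulated, WT after LPS and AhR KO after LPS. The WT mice were C57/B6/J and the AhR-deficient mice AhR KO/KO (B6.129-Ahr tm1Bra/J), a germline deletion that every cell of the animal carries. All groups share the culture: bone marrow was grown with 10 ng/ml GM-CSF and 2 ng/ml TGF-β, so 2 of the 3 growth factors concerned were added to every dish. LPS, a bacterial cell wall component sensed by TLR4, was given at 97 EU/ml on day 6 for 24 h. The treatment protocol of every library ends with 10 min of the Ca2+ ionophore A23187 at 5 µM and does not say whether unstimulated dishes received it. Per the study's methods each group holds 6 animals from 1 experiment, and it is not stated in the labels if a stimulated and an unstimulated dish shared an animal.

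GM-CSF binds a receptor made of a ligand-specific α chain, the product of Csf2ra, and the β chain shared with the IL-3 and IL-5 receptors, the product of Csf2rb. Csf2rb2 is a mouse-specific β chain used with the IL-3 receptor α chain. The receptor acts through the kinase JAK2 and the transcription factor STAT5, and both GM-CSF and TGF-β are needed for the development of alveolar macrophages, which these cultures were designed to resemble. M-CSF, the product of Csf1, binds the receptor tyrosine kinase encoded by Csf1r, on which most other macrophages depend. TGF-β binds TGFBR2, which recruits and activates TGFBR1. This receptor kinase then phosphorylates SMAD2 and SMAD3, which enter the nucleus with SMAD4. SMAD7 blocks the receptor and SKIL (SnoN) holds back SMAD-driven transcription, and both are induced by the pathway they restrain.

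AhR binds DNA together with its partner ARNT once a ligand has activated it, and the core of the motif bound is GCGTG. To show where these letters lie in genes whose levels are compared between genotypes below, the 250 bases before the annotated start are printed for Tgfbr1, Csf2ra and Csf1. Sequences are from RefSeq (GRCm38.p6), matched for 6 of the 10 genes (Csf2ra, Csf2rb2, Csf1, Tgfbr1, Tgfbr2 and Smad3), and the core is in capitals on either strand.
Tgfbr1 (chr4:47352972-47353221, plus strand): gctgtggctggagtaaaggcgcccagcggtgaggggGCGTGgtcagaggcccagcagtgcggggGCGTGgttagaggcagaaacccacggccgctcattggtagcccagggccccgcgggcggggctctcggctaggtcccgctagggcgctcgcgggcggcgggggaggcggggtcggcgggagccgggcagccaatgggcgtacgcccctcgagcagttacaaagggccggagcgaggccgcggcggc
Csf2ra (chr19:61228419-61228668, minus strand): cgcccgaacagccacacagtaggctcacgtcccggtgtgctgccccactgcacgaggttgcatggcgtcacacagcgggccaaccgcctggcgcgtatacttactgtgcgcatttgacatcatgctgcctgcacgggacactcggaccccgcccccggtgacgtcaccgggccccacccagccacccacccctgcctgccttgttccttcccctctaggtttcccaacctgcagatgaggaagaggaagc
Csf1 (chr3:107760470-107760719, minus strand): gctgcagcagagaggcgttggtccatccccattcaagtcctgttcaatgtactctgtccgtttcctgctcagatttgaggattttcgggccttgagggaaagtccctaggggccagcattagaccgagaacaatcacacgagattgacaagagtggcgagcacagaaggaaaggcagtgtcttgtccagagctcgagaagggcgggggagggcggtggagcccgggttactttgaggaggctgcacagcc
The Tgfbr1 window holds 2 cores, 210 and 182 bases before the start, and the Csf2ra and Csf1 windows hold none. Among the other windows, Tgfbr2 has 1 core (134 bases before the start), Smad3 has 2 (201 and 190 bases before it) and Csf2rb2 has none. GCGTG stands on either strand in 28.2% of 32851 mouse windows of this length. The SMAD box CAGAC, found in 42.2% of all windows, was in those of Csf2rb2 and Tgfbr2. The STAT palindrome TTCNNNGAA, found in 7.02% of all windows, was in that of Csf2rb2. A match describes letters and shows no binding, and the 3 motifs do not overlap in any of the windows printed.

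Levels are given as CPM, the counts on a gene per 1000000 counts of a library scaled by edgeR's TMM factors. Library totals lay between 45106052 and 76992663 counts. A gene was called a DEG where edgeR's quasi-likelihood test gave an adjusted p (Benjamini-Hochberg over 16593 genes) no higher than 0.05 and the log2 fold change was 1 or more in either direction. No minimum fold change was set for the interaction of genotype and LPS. Libraries are named by their numbers, 17 to 40. They fall into 3 runs of 8 consecutive numbers with 2 libraries of each group, and the labels do not call these runs batches. Libraries differed in how CPM rose with gene length, with a slope of log2 CPM on log2 length between 0.0952 and 0.585. Its median was 0.391 in libraries 17 to 24, 0.524 in 25 to 32 and 0.251 in 33 to 40. Library 19 (AhR KO unstimulated, slope 0.0952) and library 33 (WT unstimulated, 0.114) had the lowest slopes. The targeted gene Ahr had median levels of 30.7 CPM in WT and 7.40 CPM in AhR KO without stimulation, and of 18.03 and 39.2 CPM after LPS. Counts over the whole gene do not show whether the deleted part is read, so they are no check of the labels. Fewer cells of a type and less RNA per cell cannot be told apart in these bulk libraries.

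Per kb of exon, the scale on which genes can be compared, the mean level over the 24 libraries was highest for Csf2rb (92.7 CPM per kb), followed by Tgfbr1 (74.1), Csf1r (55.6), Csf2rb2 (39.4) and Csf2ra (32.8). Skil (16.8), Tgfbr2 (10.96), Csf1 (3.42) and Smad7 (1.38) came next. The β chain thus stood at the percentile 94.7 of all tested genes, Tgfbr1 at 93.7 and Csf1r at 91.7. Over the 24 libraries the ranges of neighbours such as Csf2rb2 and Csf2ra overlapped. The medians of the first 2 changed order with the state, though not in every run of library numbers. Without stimulation the median of Tgfbr1 was above that of Csf2rb, at 82.5 against 57.05 CPM per kb in WT and 138 against 67.4 CPM per kb in AhR-deficient BMDMs, where the lowest library of Tgfbr1 (117.5) exceeded the highest of Csf2rb (107.3). After LPS the median of Csf2rb was above that of Tgfbr1, at 110.4 against 36.03 CPM per kb in WT and 86.8 against 38.9 CPM per kb in AhR-deficient BMDMs. Within libraries, Tgfbr1 stood above Csf2rb in 4 of 6 WT and 6 of 6 AhR-deficient libraries without stimulation, and after LPS in 2 of 6 of each genotype, libraries 37 to 40. Smad3 was close to absent, at 0.0260 CPM per kb and the percentile 1.11. Smad2, the other TGF-β receptor substrate, had between 49.6 and 76.1 CPM in every library of the 4 groups.

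**Figure D1:**
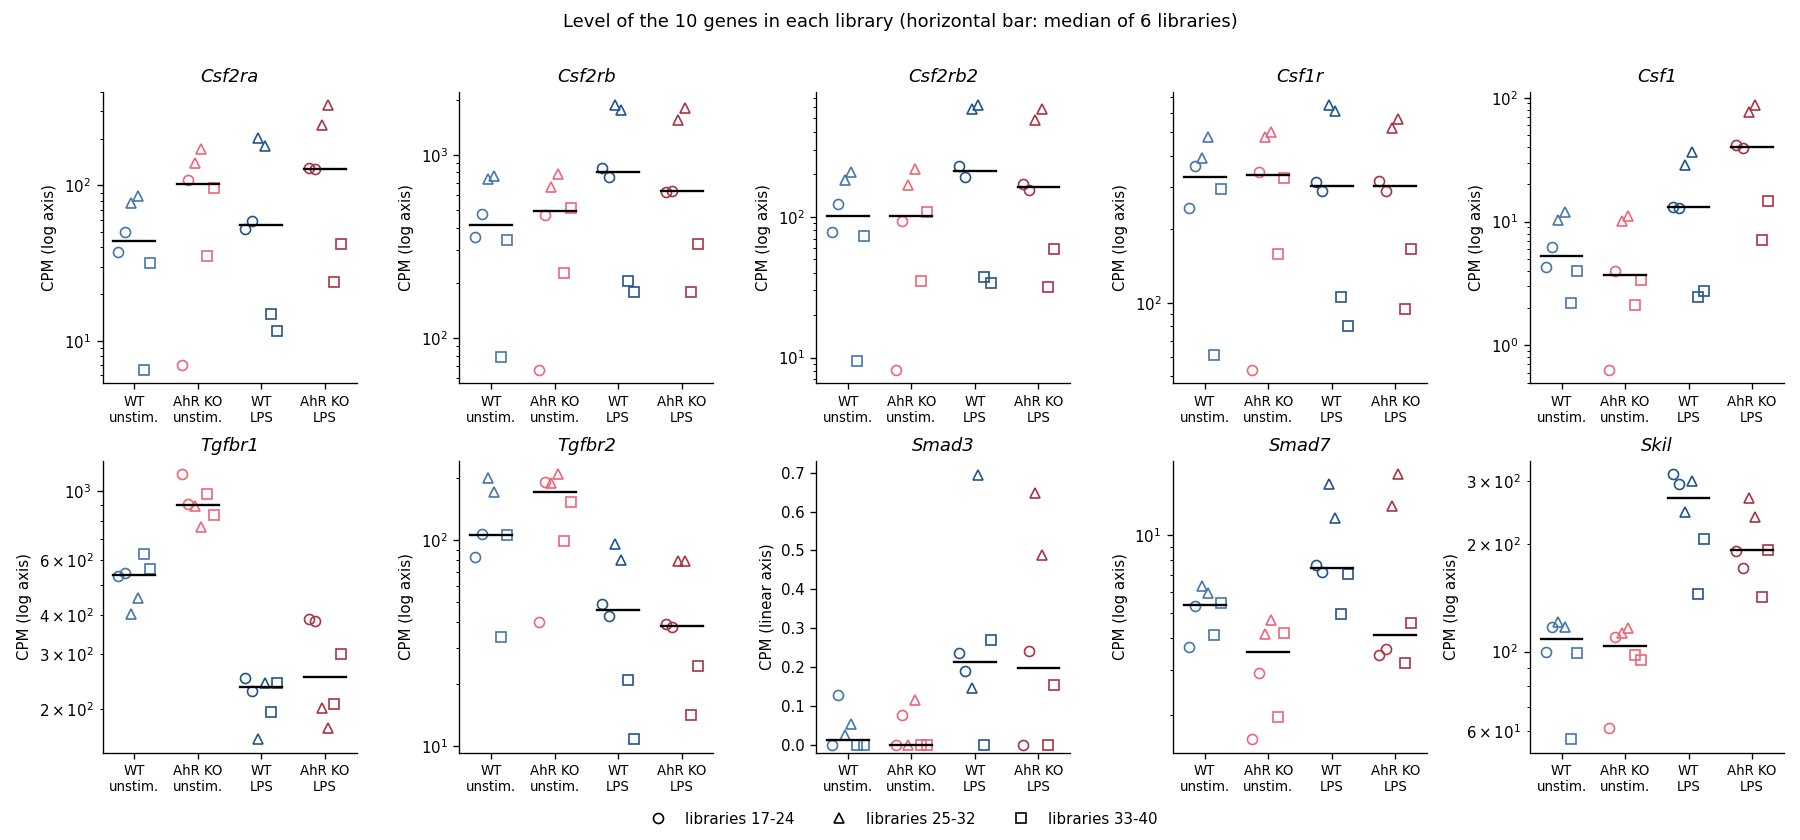
CPM of each of the 10 genes (log axes, linear for Smad3) in the 6 libraries of each group. Each point is 1 library, its shape gives the run of library numbers and the bar is the group's median. The 6 unstimulated AhR-deficient libraries lie above the 6 unstimulated WT libraries for Tgfbr1 (768 to 1130 against 404 to 629.5 CPM). Among the libraries after LPS, numbers 37 to 40 are low for the receptor chains Csf2ra, Csf2rb, Csf2rb2 and Csf1r.

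None of the 3 genes Csf2ra, Csf2rb and Csf2rb2 was a DEG in any of the 4 comparisons or in the interaction, except with the gene length slope as a covariate. That fit called the interaction for Csf2ra and Csf2rb2, Csf2ra between genotypes after LPS and Csf2rb2 with LPS in AhR-deficient BMDMs. Levels of these 3 genes varied more between libraries of a group than between the medians of groups. Csf2ra (ENSMUSG00000059326, mm10 chromosome 19, 61223957 to 61228429, minus strand), the α chain, was counted at 6.51 CPM in the lowest, a median of 43.8 and 85.2 CPM in the highest unstimulated WT library. Unstimulated AhR-deficient libraries had 6.98 CPM (lowest), 102 (median) and 171 CPM (highest). After LPS the values were 11.5, 55.6 and 201 CPM in WT and 24.0, 128 and 330.4 CPM in AhR-deficient BMDMs. The groups overlapped in every comparison. The median was higher in AhR-deficient than in WT BMDMs in both states, with a log2 fold change of 0.96 without stimulation (adjusted p = 0.80) and 0.80 after LPS (adjusted p = 0.66), neither of which passed the test. Within the 3 runs of library numbers the genotype difference in log2 CPM was −0.62, 0.93 and 1.96 without stimulation, where the run with library 19 gave the negative value. After LPS it was 1.20, 0.59 and 1.25.

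Csf2rb (ENSMUSG00000071713, chromosome 15, 78325752 to 78353847, plus strand), the shared β chain, had 78.2, 415 and 766 CPM (lowest, median and highest library) in WT and 67.0, 491 and 781 CPM in AhR-deficient BMDMs without stimulation. After LPS it had 178, 803 and 1873 CPM in WT and 178, 632 and 1809 CPM in AhR-deficient BMDMs. The genotype log2 fold changes were −0.02 and −0.13, and those with LPS 1.03 in WT (adjusted p = 0.24) and 0.91 in AhR-deficient BMDMs (adjusted p = 0.28). Within runs the LPS difference in WT was positive in 3 of 3 runs, between 0.21 and 1.27, and in AhR-deficient BMDMs in 2 of 3, between −0.50 and 1.83. Csf2rb2 (ENSMUSG00000071714, chromosome 15, 78282507 to 78305721, minus strand), the IL-3-restricted β chain, had medians of 100.5 CPM in both unstimulated groups. After LPS its medians were 211 CPM in WT and 164 CPM in AhR-deficient BMDMs, and neither the log2 fold change of 1.33 in WT (adjusted p = 0.22) nor that of 1.24 in AhR-deficient BMDMs (adjusted p = 0.24) passed the test. Csf2rb and Csf2rb2 are near-identical neighbours on opposite strands of chromosome 15, so the split of fragments between them is uncertain.

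The share of Csf2rb2 in the counts of the pair does not depend on library scaling. It averaged 18.03% ± 3.83 (SD, n = 6) in WT and 16.7% ± 4.09 in AhR-deficient BMDMs without stimulation, and 20.5% ± 4.22 and 19.99% ± 4.06 after LPS. The 4 differences between groups ran from −1.34 to 3.29 percentage points. None passed an exact two-sided permutation test (p between 0.19 and 0.81, between 0.649 and 0.81 after adjustment over 4 tests, smallest possible p 0.00216). This test did not take the runs of library numbers into account. The share was 10.9% to 21.5% in libraries 17 to 24, 19.9% to 26.3% in 25 to 32 and 10.8% to 17.5% in 33 to 40. The share was lowest in library 33 (10.8%) and library 19 (10.9%), the same libraries with the lowest levels of both genes without stimulation.

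The level of the α chain relative to the β chain was higher in AhR-deficient libraries, with less overlap than either gene's own level showed. This ratio was chosen after the values had been seen and is described with no test. Per kb of exon, Csf2ra over Csf2rb was 0.211 in the lowest, 0.266 in the median and 0.282 in the highest unstimulated WT library. In unstimulated AhR-deficient BMDMs it was 0.264, 0.507 and 0.586, and 5 of the 6 libraries lay above every WT library. The exception was library 19, at 0.264. After LPS the ratio was 0.156, 0.191 and 0.272 in WT and 0.328, 0.433 and 0.521 in AhR-deficient BMDMs, with no overlap between the groups. The ratio of the group means, AhR-deficient over WT, was 1.84 without stimulation and 2.08 after LPS. Within the runs it was 1.59, 2.00 and 1.95 without stimulation, and 2.90, 1.63 and 1.92 after LPS.

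**Figure D2:**
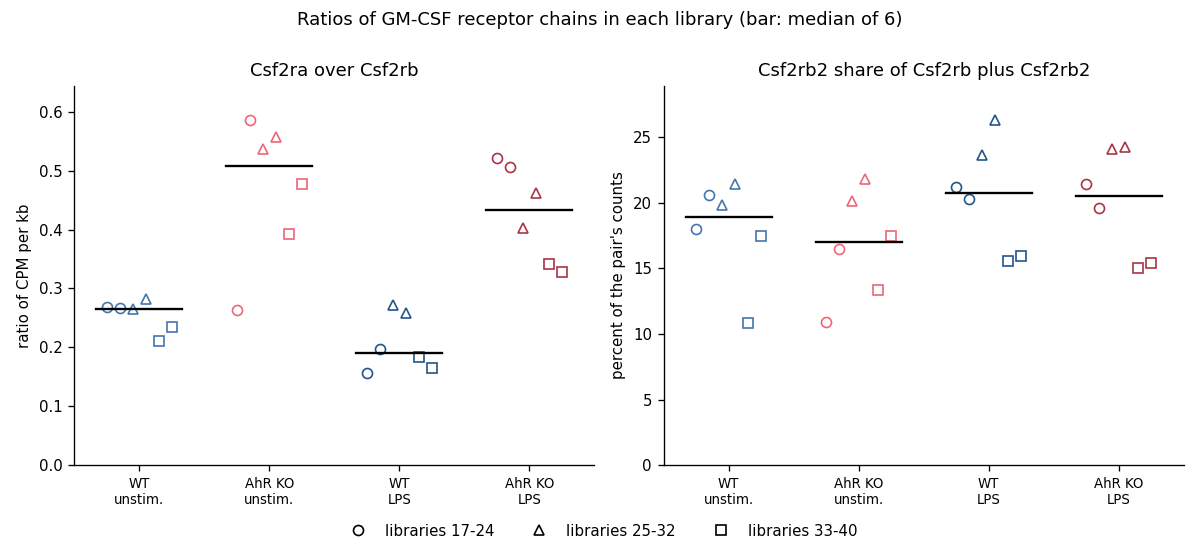
Left, ratio of Csf2ra to Csf2rb in CPM per kb of exon, and right, share of Csf2rb2 in the counts of Csf2rb plus Csf2rb2 in percent, both from 0. Each point is 1 library, its shape gives the run of library numbers and the bar is the median of 6. On the left the AhR-deficient libraries after LPS (0.328 to 0.521) lie above the WT libraries (0.156 to 0.272), and on the right the groups overlap.

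Of the M-CSF receptor and its ligand, the ligand was a DEG with LPS in AhR-deficient BMDMs and the receptor was a DEG in neither genotype. Csf1r (ENSMUSG00000024621, chromosome 18, 61100598 to 61132149, plus strand), the M-CSF receptor, had nearly the same median in all 4 groups. It was 328 CPM in WT and 336 CPM in AhR-deficient BMDMs without stimulation, and 300.2 and 302 CPM after LPS. Its libraries spread from 60.8 to 480.5 CPM in unstimulated WT, from 53.1 to 501 in unstimulated AhR-deficient, from 79.9 to 649 in stimulated WT and from 93.9 to 568 CPM in stimulated AhR-deficient BMDMs. The 4 log2 fold changes lay between −0.07 and 0.16, each with a standard error of 0.56, and adjusted p values were between 0.86 and 1. The other ligand of this receptor, Il34, did not reach the filter on low counts.

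Csf1 (ENSMUSG00000014599, chromosome 3, 107741048 to 107760469, minus strand), which encodes M-CSF itself, rose with LPS in AhR-deficient BMDMs. It had 2.20, 5.26 and 11.9 CPM (lowest, median and highest library) in WT and 0.634, 3.67 and 11.1 CPM in AhR-deficient BMDMs without stimulation. After LPS it had 2.47, 13.0 and 36.4 CPM in WT and 7.10, 40.3 and 87.7 CPM in AhR-deficient BMDMs. The log2 fold change with LPS was 3.09 (standard error 0.75, adjusted p = 0.0016) in AhR-deficient and 1.31 (adjusted p = 0.15) in WT BMDMs. The genotype difference after LPS was 1.47 (standard error 0.71, adjusted p = 0.21) and the interaction 1.78 (adjusted p = 0.49), so neither was called. Inside each run, however, both stimulated AhR-deficient libraries lay above both stimulated WT libraries. Libraries 23 and 24 had 41.6 and 38.97 CPM against 13.2 and 12.9 in libraries 21 and 22. Libraries 31 and 32 had 77.4 and 87.7 CPM against 28.8 and 36.4 in libraries 29 and 30, and libraries 39 and 40 had 7.10 and 14.6 CPM against 2.47 and 2.77 in libraries 37 and 38. The within-run genotype differences in log2 CPM were 1.59, 1.33 and 1.78. With the runs as a factor in the model the genotype difference after LPS was 1.61 (adjusted p = 0.0038) and the interaction 2.00 (adjusted p = 0.022), both of which pass.

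The type I receptor of TGF-β was the 1 of the 10 genes whose unstimulated genotypes did not overlap. Tgfbr1 (ENSMUSG00000007613, chromosome 4, 47353222 to 47414931, plus strand) had 404, 539 and 629.5 CPM (lowest, median and highest library) in unstimulated WT and 768, 903 and 1130 CPM in unstimulated AhR-deficient BMDMs. All 6 AhR-deficient libraries thus lay above all 6 WT libraries. Its log2 fold change, 0.82 with a standard error of 0.19 (adjusted p = 0.0060), passed the p threshold but not the minimum fold change. Within the runs the difference was 0.91, 0.95 and 0.61. After LPS the genotypes overlapped, at 160, 235 and 252 CPM in WT and 174, 254 and 388 CPM in AhR-deficient BMDMs, with a log2 fold change of 0.32 (adjusted p = 0.33). Libraries 23 and 24 held the highest values and accounted for the largest within-run difference, 0.69, against −0.07 and 0.19 in the other runs. LPS lowered Tgfbr1 in both genotypes without overlap. It fell by 1.24 on the log2 scale in WT (adjusted p = 1.0e-05) and by 1.74 in AhR-deficient BMDMs (adjusted p = 6.5e-08), and the difference between these responses was −0.50 (adjusted p = 0.45).

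Tgfbr2 (ENSMUSG00000032440, chromosome 9, 116084293 to 116175360, minus strand), the receptor that binds TGF-β first, had 33.8, 106 and 200.4 CPM in WT and 39.9, 171 and 208 CPM in AhR-deficient BMDMs without stimulation. After LPS it had 10.8, 46.0 and 95.8 CPM in WT and 14.1, 38.4 and 79.2 CPM in AhR-deficient BMDMs. The groups overlapped in all comparisons. The gene fell with LPS in AhR-deficient BMDMs, by 1.69 on the log2 scale (adjusted p = 0.010). In WT the log2 fold change was −1.22 and missed the threshold (adjusted p = 0.064), and with the runs as a factor it was −1.36 (adjusted p = 0.0023). In both genotypes the within-run difference was negative in 3 of 3 runs. The genotype log2 fold changes were 0.33 without stimulation and −0.13 after LPS.

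Smad3 (ENSMUSG00000032402, chromosome 9, 63646767 to 63757994, minus strand), a transducer of the TGF-β signal, was counted too rarely for its level to be described beyond its presence. The 6 libraries of a group together held 15 counts in WT and 12 in AhR-deficient BMDMs without stimulation, and 93 and 80 after LPS. No count was found in 3, 4, 1 and 2 libraries of these groups. It reached the filter on low counts through 7 libraries after LPS and 0 without stimulation, so it had to differ with LPS. Its test values are not described here. Where its call is counted or drawn below, it is no support for a difference.

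Smad7 (ENSMUSG00000025880, chromosome 18, 75367529 to 75395935, plus strand), the inhibitory SMAD, was lowly expressed. It had 3.68, 5.36 and 6.36 CPM in WT and 1.61, 3.51 and 4.68 CPM in AhR-deficient BMDMs without stimulation, a log2 fold change of −0.67 (adjusted p = 0.58) that was negative in 3 of 3 runs. After LPS it had 4.92, 7.43 and 15.7 CPM in WT and 3.17, 4.08 and 17.2 CPM in AhR-deficient BMDMs. It rose with LPS in AhR-deficient BMDMs by a log2 fold change of 1.21 (adjusted p = 0.018), with overlapping groups. Without library 32, the highest, the value was 0.78 (adjusted p = 0.10), and without library 31 it was 0.99 (adjusted p = 0.059). With the runs as a factor it was 0.98 (adjusted p = 0.0037), just below the minimum fold change, and in limma-voom it was 0.95 (adjusted p = 0.065). In WT the value was 0.81 (adjusted p = 0.12).

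Skil (ENSMUSG00000027660, chromosome 3, 31095058 to 31122577, plus strand), the SMAD corepressor, rose with LPS in both genotypes with no overlap. It had 56.8, 108 and 121 CPM in WT and 61.2, 104 and 117 CPM in AhR-deficient BMDMs without stimulation. After LPS it had 145, 270 and 313 CPM in WT and 142, 192 and 269 CPM in AhR-deficient BMDMs. The log2 fold change was 1.301 (adjusted p = 2.7e-05) in WT and 1.02 (adjusted p = 3.2e-04) in AhR-deficient BMDMs. The second of these falls just below the minimum fold change without library 19 (0.92), 31 (0.93) or 32 (0.97), with adjusted p values of 8.8e-04 to 0.0012. Genotype made no called difference, at −0.04 without stimulation and −0.32 after LPS (adjusted p = 0.42), though within runs the latter was negative in 3 of 3.

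Across the 10 genes, none was a DEG between genotypes without stimulation, against 4.48% of all tested genes (0.916% with higher and 3.57% with lower levels in AhR-deficient BMDMs). Without a minimum fold change 1 of the 10, Tgfbr1, passed, against 6.12% of all genes. It was also the 1 of 10 without overlap between the groups, against 5.15% of all genes. After LPS 0 of the 10 were DEGs between genotypes against 8.36% of all genes (2.17% higher and 6.19% lower). In this comparison 0 of the 10 showed no overlap, against 7.11%. In edgeR's test an unadjusted p of at most 0.05 was reached by 1 of the 10 in each genotype comparison, against 14% of all genes without stimulation and 23% after LPS. DESeq2 and limma-voom also called 0 of the 10 in both. The median log2 fold change of the 10 was −0.03 without stimulation and −0.10 after LPS, against −0.0057 and −0.046 over all tested genes.

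LPS changed 2 of the 10 in WT BMDMs, Skil (higher) and Tgfbr1 (lower), against 24.9% of all genes (13.2% higher and 11.8% lower). Both showed no overlap, which 22.4% of all genes did. In AhR-deficient BMDMs 6 of the 10 met the rule for DEGs, against 30.8% of all genes (15.1% higher and 15.7% lower). One of them, Smad3, passed the filter only through libraries after LPS, so its call is no support for a difference. Of the other 9, 3 were higher (Csf1, Skil and Smad7) and 2 lower (Tgfbr1 and Tgfbr2). Of these only Tgfbr1 and Skil showed no overlap between the 6 and 6 libraries, 2 of 10 against 28.5% of all genes. The count of 6 rested on single libraries: it was 3 without library 31 and 3 without library 32, and 4 without library 19, while 29.6% to 30.8% of all genes were called in these 3 fits. The median log2 fold change of the 9 genes other than Smad3 was 0.84 in WT and 0.91 in AhR-deficient BMDMs, against 0.031 and −0.032 over all genes. The 2 LPS responses differed for 0 of the 10 at an adjusted p of at most 0.05 in edgeR, DESeq2 or limma-voom, and for 0 at an unadjusted p of at most 0.05 in edgeR, against 13.5% of all genes. Over all genes the interaction was called for 4.30% (1.95% higher and 2.34% lower in AhR-deficient BMDMs). With the runs as a factor 4 of the 10 were called with LPS in WT and 5 in AhR-deficient BMDMs, Smad3 in both, against 27.2% and 33.4% of all genes in that fit. Between genotypes it called 0 of the 10 without stimulation (against 5.62% of all genes) and 1, Csf1, after LPS (against 10%). The interaction was then called for 1, Csf1, against 7.24% of all genes.

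**Figure D3:**
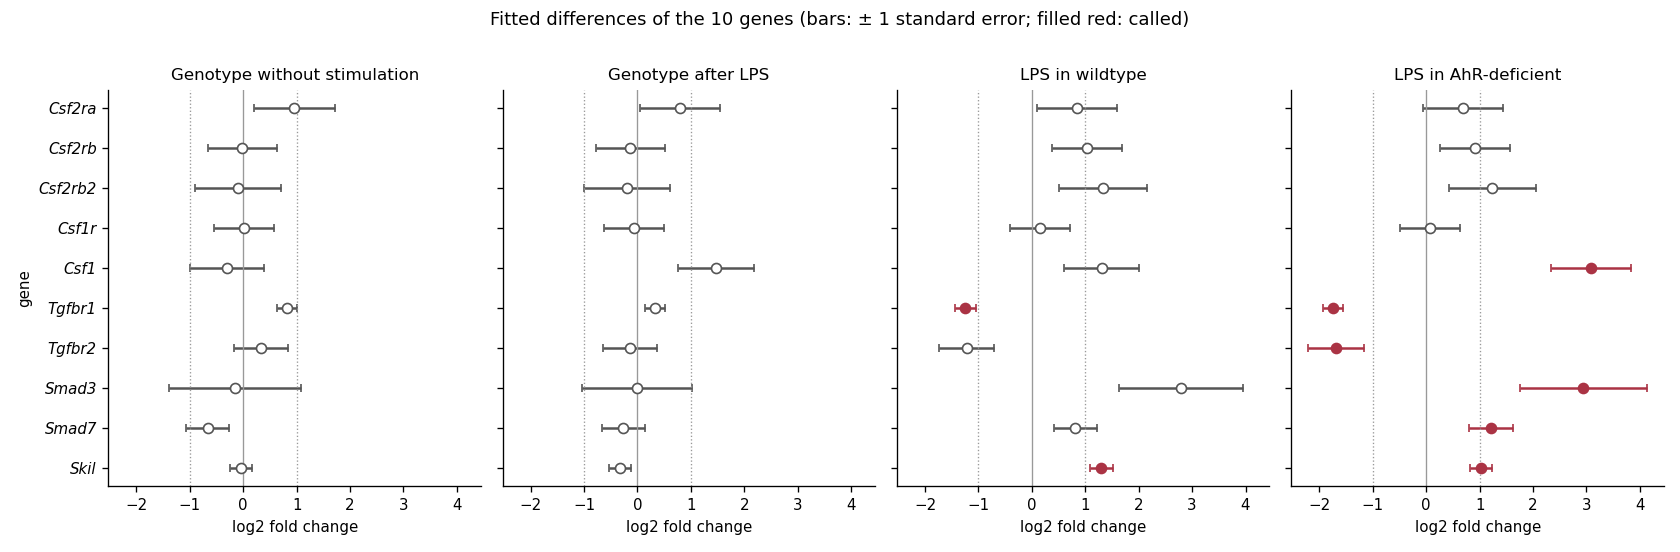
Log2 fold change of the 10 genes in 4 comparisons, with bars of 1 standard error from edgeR and dotted lines at the minimum fold change. Filled red points are DEGs: Skil and Tgfbr1 with LPS in WT, and Csf1, Skil, Smad3, Smad7, Tgfbr1 and Tgfbr2 with LPS in AhR-deficient BMDMs, where Smad3 passed the filter only through libraries after LPS.

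Within groups, most of the 10 genes had their lowest level in a library with a low gene length slope. The highest library of a group exceeded the lowest by 13.1 to 24.6 times for Csf2ra, 9.80 to 11.7 times for Csf2rb, 18.3 to 26.5 times for Csf2rb2 and 6.04 to 9.43 times for Csf1r. For Csf1 the range was 5.39 to 17.4 times and for Tgfbr2 5.22 to 8.87 times. Tgfbr1 and Skil varied less, by 1.47 to 2.23 and by 1.89 to 2.16 times. In all 4 groups the lowest library of Csf2ra, Csf2rb, Csf2rb2, Csf1r, Csf1, Tgfbr2, Smad7 and Skil was among the 2 libraries with the lowest slopes. For Tgfbr1 this held in 0 of 4 groups. Exon length did not rank the genes by spread: Csf2ra, with 2871 bases, varied more than Skil, with 9694. How much of the spread goes with the slope was not tested. With the slope as a covariate, Csf1 (1.89, adjusted p = 1.3e-07) and Csf2ra (1.299, adjusted p = 4.6e-07) were called higher in AhR-deficient BMDMs after LPS, 2 of the 10 against 12% of all genes in that fit. Without stimulation 0 of the 10 were called between genotypes, against 6.6% of all genes. With LPS 4 of the 10 were called in WT and 7 in AhR-deficient BMDMs, Smad3 in both, against 28.6% and 33.7% of all genes. The second of these counts includes Csf2rb2, at 1.16 (adjusted p = 3.6e-08). The interaction was then called for Csf1 (2.57, adjusted p = 1.8e-06), Csf2ra (0.65, adjusted p = 0.035) and Csf2rb2 (0.59, adjusted p = 0.030), against 16.8% of all genes, and the sign of the last 2 turned from that without the covariate (−0.16 and −0.09).

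**Figure D4:**
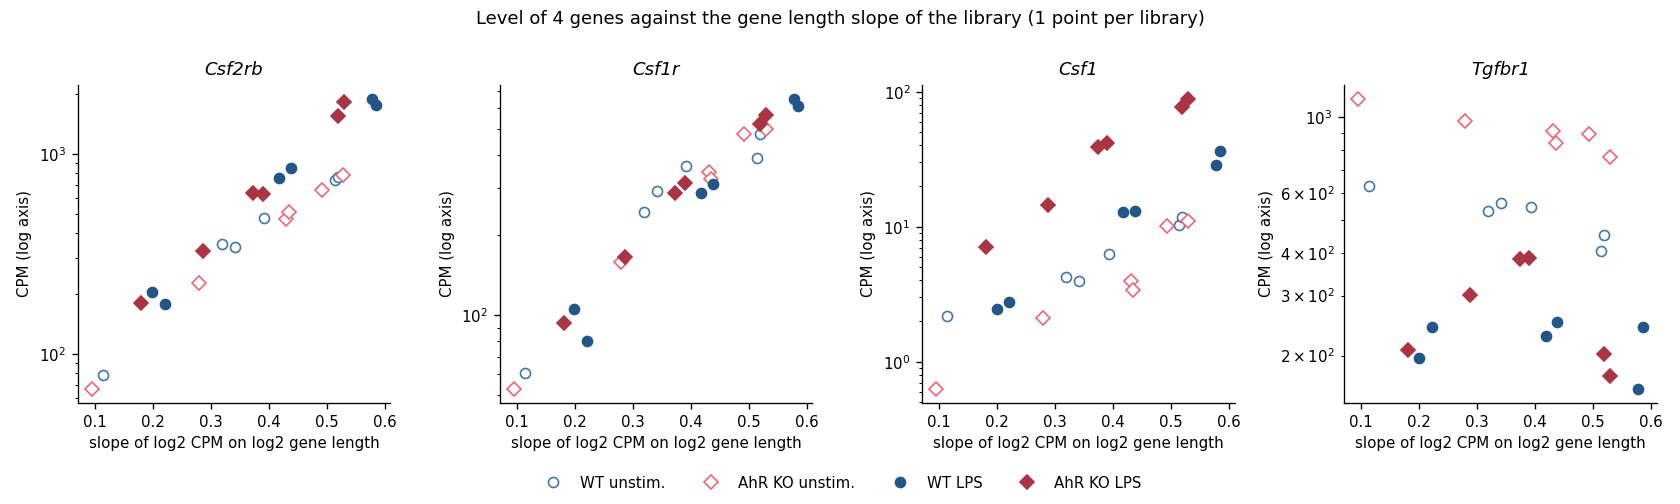
CPM (log axes) of Csf2rb, Csf1r, Csf1 and Tgfbr1 in each of the 24 libraries against the library's slope of log2 CPM on log2 gene length. Circles are WT and diamonds AhR-deficient libraries, open without stimulation and filled after LPS. Csf2rb and Csf1r are lowest in libraries 19 and 33, which have the lowest slopes, and Csf1 is lowest in library 19, while Tgfbr1 is higher in all 6 unstimulated AhR-deficient than in all 6 unstimulated WT libraries.

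The genes whose levels moved most like those of 3 receptors over the 24 libraries were found by the root mean square difference of centred log2(CPM + 0.5) values. For Csf1r, whose own spread was 1.05, these were Gak (0.150), Abr (0.159) and Bag6 (0.172). For Csf2ra, with a spread of 1.52, they included Sh3pxd2b (0.332) and Tns3 (0.341). For Tgfbr2, with a spread of 1.19, they were Sept11 (0.133), Eif4ebp2 (0.301) and Tpcn1 (0.306). Likeness over libraries includes their shared slope on gene length.

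The rest of the GM-CSF path was described from a list of 15 ligands, receptor chains and signalling proteins, of which 12 were tested. Counts of this and the following lists stand against the shares of all tested genes given above. Between genotypes 0 of 12 were DEGs in either state, with median log2 fold changes of 0.05 and 0.03. Csf2 passed the filter only through libraries after LPS. Of the other 11, 3 rose with LPS in WT and 2 in AhR-deficient BMDMs and 0 fell (medians 0.30 and 0.18). Jak2, the kinase bound to the β chain, rose by a log2 fold change of 2.24 in WT (adjusted p = 0.0014) and 2.82 in AhR-deficient BMDMs (adjusted p = 1.3e-04). Il3ra, the IL-3 receptor α chain, rose by 1.21 and 1.15. Stat5a rose in WT by 1.81 (adjusted p = 0.038) and stood at 1.09 in AhR-deficient BMDMs (adjusted p = 0.20). Csf2, the gene for GM-CSF itself, was rare: its 6 libraries held 13 counts in WT and 0 in AhR-deficient BMDMs without stimulation, and 79 and 171 counts after LPS.

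Most feedback inhibitors and targets of STAT5 were DEGs with LPS. Of 10 such genes, all tested, 6 rose and 1 fell in each genotype with LPS (medians 1.29 and 1.41), while 24.9% of all tested genes were DEGs with LPS in WT (13.2% higher) and 30.8% in AhR-deficient BMDMs (15.1% higher). Socs3, Cish and Pim1 rose in both genotypes, Socs3 by 3.82 and 4.41, Cish by 1.55 and 1.67 and Pim1 by 1.72 and 2.16, and so did the cytokine gene Osm (1.03 and 1.72). Pparg, the transcription factor that GM-CSF induces in alveolar macrophages, fell by 1.53 in WT and by 2.21 in AhR-deficient BMDMs on the log2 scale. Between genotypes 1 of 10 was a DEG in each state (medians −0.06 and 0.10). Socs1, an inhibitor of JAK kinases, had 18.4, 27.6 and 29.9 CPM in unstimulated WT and 5.19, 8.42 and 13.0 CPM in unstimulated AhR-deficient BMDMs, without overlap (log2 fold change −1.63, adjusted p = 3.2e-06). After LPS the median was 116 CPM in both genotypes. Its interaction was 1.63 (adjusted p = 5.9e-04). Socs2, another inhibitor, is outside the rule for named genes and was picked after its values were seen. It had a median of 218 CPM in WT and 57.7 CPM in AhR-deficient BMDMs after LPS (log2 fold change −1.70, adjusted p = 4.6e-05), and an interaction of −1.46 (adjusted p = 0.016).

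Among 11 ligands and adaptors of the M-CSF receptor, 10 were tested. Between genotypes 0 of 10 were DEGs (medians 0.03 and 0.12). With LPS 3 rose in each genotype and 0 fell (medians 0.85 and 0.12). These were the adaptors Dok1 (1.98 in WT and 2.95 in AhR-deficient BMDMs) and Fyb (2.19 and 2.72) and the ubiquitin ligase Cblb (2.29 and 2.32).

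TGF-β ligands, latency proteins and activators formed a list of 15, of which 12 were tested. Of these Itgb8, Tgfb2 and Tgfb3 passed the filter only through libraries of 1 state, and of the other 9, 5 rose and 0 fell with LPS in each genotype (medians 1.58 and 2.18). Inhba, the activin chain, rose by log2 fold changes of 5.72 in WT and 5.26 in AhR-deficient BMDMs, and Thbs1, an activator, by 3.63 and 4.84. Ltbp2, a matrix protein placed in the latent TGF-β binding protein family by its name, rose by 4.31 and 3.32 from a low base of 40 and 100 counts over 6 libraries. Itgb8, an integrin chain that releases active TGF-β, had 42 counts in WT and 18 in AhR-deficient BMDMs over the 6 unstimulated libraries, and 4008 and 3407 after LPS. Tgfb2 had 12 and 45 counts without stimulation and 339 and 283 after LPS. Tgfb1, the main ligand of the family, had medians of 70.4 and 124 CPM without stimulation and 74.8 and 113 CPM after LPS, and passed no test (log2 fold changes between 0.47 and 0.75 in the 4 comparisons). Tgfb3 and Tgfb2 passed the filter only through libraries of 1 genotype, and of the other 10, 0 were DEGs between genotypes in either state (medians 0.61 and 0.39). Tgfb3 had 1253 counts in WT and 13 in AhR-deficient BMDMs over the 6 unstimulated libraries, and 194 and 9 after LPS.

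Of 16 other receptors, co-receptors and SMADs of the superfamily, all tested, 1 was higher and 1 lower in AhR-deficient BMDMs in each state (medians 0.06 and −0.15). Acvrl1 (ALK1), a type I receptor, had 14.8, 18.4 and 26.5 CPM in WT and 44.8, 51.8 and 61.9 CPM in AhR-deficient BMDMs without stimulation (log2 fold change 1.45, adjusted p = 1.6e-05). After LPS the log2 fold change was 1.79 (adjusted p = 7.3e-07), and neither state showed overlap. Bmpr1a, a BMP type I receptor, was lower by 1.01 and by 1.05 on the log2 scale (log2 fold changes −1.01 and −1.05). With LPS 0 rose, while 1 fell in WT and 2 in AhR-deficient BMDMs (medians 0.46 and 0.39). Smad5, a transducer of BMP signals, fell by 1.14 and by 1.72, and Bambi, a decoy receptor, fell by 2.21 in AhR-deficient BMDMs with −0.99 in WT. Smad2 and Smad4 were no DEGs in any comparison.

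Among 11 SMAD corepressors, ubiquitin ligases and phosphatases, all tested, 0 were DEGs between genotypes without stimulation and 1 was lower after LPS (medians 0.0056 and −0.05). This was Tgif2, at −2.05 (adjusted p = 0.0025). With LPS 1 rose in WT, while 2 rose and 2 fell in AhR-deficient BMDMs (medians 0.41 and 0.31). Tgif1 rose by 1.78 and 1.73. Pmepa1 (1.72) rose and Ski (−2.05), the close relative of Skil, fell in AhR-deficient BMDMs, with 1.05 and −0.99 in WT.

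Of 9 TGF-β target genes, all tested, 1 was lower in AhR-deficient BMDMs without stimulation, while after LPS 1 was higher and 1 was lower (medians −0.20 and 0.05). Cdkn2b, a cell cycle inhibitor, had 10.5, 18.2 and 21.6 CPM in WT and 38.7, 41.0 and 44.5 CPM in AhR-deficient BMDMs after LPS (1.24, adjusted p = 1.1e-04), and an interaction of 1.19 (adjusted p = 0.014). Itgae (CD103), an integrin of dendritic and epithelial-associated cells, was lower in both states, at −7.24 and −4.90. With LPS 3 rose and 2 fell in each genotype (medians 0.28 and −0.36). Cdkn1a rose by 2.44 and 3.35 and Bhlhe40, a transcriptional repressor, by 1.11 and 1.36, while Id1 fell by 1.90 and by 1.32. Klf10 fell in AhR-deficient BMDMs (−1.13) with −0.90 in WT.

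**Figure D5:**
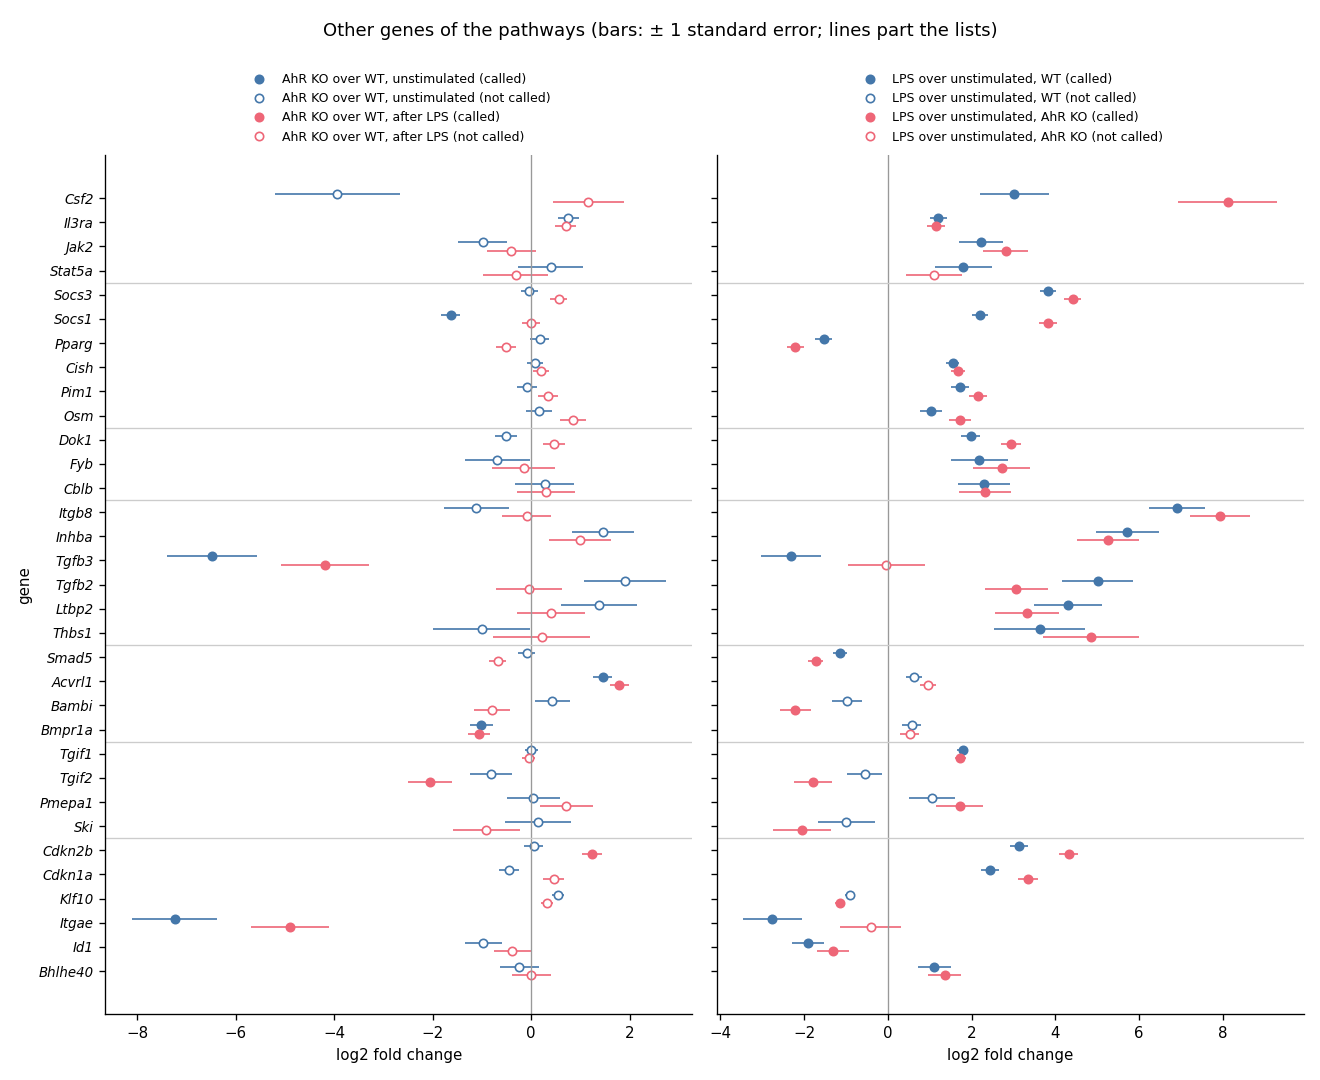
Log2 fold change of the 33 named genes of the 7 lists, with bars of 1 standard error, between genotypes on the left and with LPS on the right. Filled points are DEGs and grey lines part the lists. Socs1 without stimulation and Cdkn2b after LPS differ between genotypes. Csf2, Itgb8, Tgfb2 and Tgfb3 passed the filter only through libraries of 1 state, and fitted values of Csf2 in AhR-deficient BMDMs rest on a group with 0 counts. Tgfb3 also passed only through WT libraries, and Csf2 and Tgfb2 only through AhR-deficient ones. Their genotype values are therefore no support for a difference.

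Macrophage markers were present in every group. All 6 (Adgre1, Cd68, Itgam, Lyz2, Fcgr1 and Mertk) had a mean of at least 1 CPM in each, and their sum lay between 11754 and 33331 CPM. Between genotypes 0 of them were DEGs without stimulation and 1, Fcgr1, was higher in AhR-deficient BMDMs after LPS. Of 8 alveolar macrophage markers at least 7 had a mean of 1 CPM in each group, with a sum between 3881 and 10394 CPM. Of these 1 was higher without stimulation, and 1 was higher and 1 lower after LPS in AhR-deficient BMDMs. With LPS 2 of the 6 macrophage markers rose in WT and 3 in AhR-deficient BMDMs, and 0 fell. Among the alveolar macrophage markers Krt79 passed the filter only through unstimulated libraries. Of the other 7, 1 rose and 3 fell with LPS in each genotype, and Siglecf and Fabp4 fell in both.

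Markers of other cell types moved with genotype. Of the neutrophil markers 6 of 6 tested were lower in AhR-deficient BMDMs without stimulation and 4 of 6 after LPS. Their sum was 1500 to 11956 CPM in WT and 225 to 745 CPM in AhR-deficient BMDMs without stimulation, and 654 to 8045 against 130.0 to 973 CPM after LPS. Of the dendritic cell markers 4 of 5 were lower in each state. Their sum was 17.4 to 75.1 against 3.02 to 9.83 CPM without stimulation and 562 to 2452 against 99.4 to 892 CPM after LPS. Both Langerhans cell markers, Cd207 and Epcam, were lower in each state, with sums of 56.8 to 154 against 0.781 to 3.48 CPM, and after LPS of 6.96 to 26.04 against 0 to 0.315 CPM, where Cd207 had no count in AhR-deficient BMDMs. Of 6 mast cell and basophil markers 4 were lower without stimulation and 5 after LPS, with sums of 5.90 to 19.9 against 1.84 to 3.94 CPM and of 10.1 to 33.8 against 2.37 to 6.999 CPM. Sums of 4 lymphocyte markers, of which 0 reached the filter, did not exceed 0.310 CPM in any library. Sums of 4 stromal markers, all tested, did not exceed 15.3 CPM, and 0 of the 4 were called between genotypes. Of the markers called lower, Cd207, Cd209a, Elane, Flt3 and Gata2 passed the filter only through WT libraries, as did the uncalled Fcer1a. Without these genes, 5 of 5 neutrophil markers were lower without stimulation and 3 of 5 after LPS. The counts were then 2 of 3 and 3 of 3 for dendritic cell and 1 of 1 in each state for Langerhans cell markers. For mast cell and basophil markers they were 3 of 4 and 4 of 4. Of all tested genes 3.57% and 6.19% were lower in these states. With LPS the dendritic cell sum was higher in both genotypes, and most of it was Ccr7 (log2 fold change 5.20 in WT and 7.76 in AhR-deficient BMDMs). Flt3 passed the filter only through libraries after LPS and Cd209a only through unstimulated ones. Of the other 3 markers, 2 rose and 0 fell in WT. In AhR-deficient BMDMs 1, Ccr7, rose, while Zbtb46 (−0.0070) and Dpp4 (0.40) were not called. Elane passed the filter only through unstimulated libraries and Fcer1a only through libraries after LPS. Of the other 5 neutrophil markers 1 fell with LPS in each genotype and 0 rose. Of the other 5 mast cell and basophil markers 1 rose in WT and 0 in AhR-deficient BMDMs. Langerhans cell markers fell, 2 in WT and 1 in AhR-deficient BMDMs, and 1 of 4 stromal markers rose in each genotype. The part of these cells in the differences of Tgfbr1, Socs1, Socs2, Tgfb3 and Itgae between genotypes, and in those of the 10 genes with LPS, was not tested.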

How the data were processed

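RNA was sequenced as paired reads from strand-specific poly(A) libraries of 24 BMDM cultures. The authors used GSNAP for alignment to mm10 and featureCounts 2.0.1 to count fragments with a unique alignment on the genes of Ensembl release 98, with the strand taken into account. The submitters' processing notes also name bcl2fastq 2.20.0. They deposited these raw counts for 55421 genes, and 92 spike-in sequences with 1 count in all were left out. Symbols came from GENCODE M21.

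In edgeR 4.0.16 under R 4.3.3, 1 model with group coefficients was fitted to all 24 libraries after filterByExpr (16593 genes) and TMM scaling, and tested by robust quasi-likelihood with p values adjusted by Benjamini-Hochberg. DESeq2 1.42.0 and limma-voom (limma 3.58.1) were alternatives, beside other scalings and filters, covariates for runs and gene length slope, and each library left out. Depth was 45106052 to 76992663 counts. All 60 pairs of libraries within groups differed beyond counting noise. The biological coefficient of variation common to all tested genes was 49.1%, which includes differences between runs and in gene length slope. Each p value rests on a spread between libraries estimated for its own gene. The Csf2rb2 share was compared by exact permutation over 924 arrangements. Python 3.11.15 was used for the rest, and tests were checked on simulated data.

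The 10 genes, the 7 lists of pathway genes (87 genes) and the 8 lists of markers (43 genes) were chosen from general knowledge with earlier results of these data known. Named were the 10 genes, from each pathway list the DEGs of any comparison or the interaction, at most the 6 with the smallest adjusted p, the 3 genes most like Csf1r, Csf2ra and Tgfbr2, and Ahr. A gene of the TGF-β target list and a gene of those most like Csf2ra are not reported here, and the list was counted without the first.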

Additional observations from a re-analysis of the deposited data

Results flagged for a closer look

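A single library stood far from the other 5 of its group for 2 of 48 sets of 6 values tested by Dixon's criterion, while chance marks about 1 in 20 such sets. Both were in unstimulated WT library 33. Skil had 56.8 CPM there against 99.2 to 121 CPM in the others, and the share of Csf2rb2 in the pair with Csf2rb was 10.8% there against 17.5% to 21.4%. This library also had the lowest gene length slope of its group, 0.114. Without libraries 19 and 33 the count of called genes among the 10 was 3 for LPS in WT and 4 for LPS in AhR-deficient BMDMs, against 25.4% and 31.3% of all genes in that fit.

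The response to LPS differed between genotypes for 2 of the 33 named pathway genes by edgeR's test of the interaction, against 4.30% of all genes tested. A called interaction was one way for a gene to be named, so the count is in part set by the choice. The interaction log2 value was 1.63 for Socs1 (adjusted p = 5.9e-04), which was called lower in AhR-deficient BMDMs without stimulation. It was 1.19 for Cdkn2b (adjusted p = 0.014), whose higher level in AhR-deficient BMDMs was called after LPS.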

How the results depend on the processing

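Of 1242 values of the 10 genes under alternatives, 1198 kept direction and side of the threshold or were uncalled in both fits (116 of the uncalled changed sign), 19 were gained, 23 lost and 2 reversed. Without a minimum fold change 1 of the 10 genes was called between genotypes without stimulation, and 2096 and 6305 genes of all were called between genotypes after LPS and with LPS in WT. With the runs of 8 library numbers as a factor 1 of the 10 was called between genotypes after LPS, 4 with LPS in WT and 1 in the interaction, where 1201 of all genes were called. With the gene length slope as a covariate these counts were 2 (against 1997 of all genes), 4 (against 4745), 3 and 2793, 7 of the 10 (against 5590) were called in AhR-deficient BMDMs with LPS, and the interaction turned to 0.59 for Csf2rb2 and 0.65 for Csf2ra. DESeq2 called 1125 genes in the interaction, against 713 in edgeR. Without libraries 33 to 40, an alternative chosen after seeing the data as was leaving out libraries 19 and 33 together, 373 were called. In a fit of the 12 libraries compared 3 of the 10 were called with LPS in AhR-deficient BMDMs (against 30.3% of all genes), and leaving out 1 library gave 3 to 6 (against 29.6% to 30.8%). Tgfbr1 between unstimulated genotypes stayed between 0.75 and 0.93, with adjusted p between 4.1e-04 and 0.048, in every alternative. Except for the settings described here, the cause of these shifts was not tested. No paired analysis was possible because library numbers are unique and pair no samples. Depth limits Smad3 and Csf2, which had under 200 counts in any group.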
